A study of Mus musculus with 6 samples.

Results

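The features described here are 37 long non-coding RNAs recorded in small RNA libraries of mouse heart, out of 30638 features in the count table. They are the rows typed by the authors as lincRNA, antisense or processed_transcript whose raw counts summed to at least 60 over the 6 libraries, without Malat1, Neat1, Gas5, Snhg12 and 1110038B12Rik. The members were thus chosen by their count sum over both groups, so abundance itself is a description here and was not tested. By type, 14 were lincRNA, 8 antisense and 15 processed_transcript, and the same types held 8157 further features under the minimum. At the edge of the rule, Gm43672 (67 counts), Mir99ahg (66) and AC153899.1 (60) lay just inside, and 2410006H16Rik (54), 1810026B05Rik (52) and Gm15543 (52) just outside.

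Hearts of 3 control mice and 3 knockout mice were compared, all C57BL/6. Both groups carried a floxed exon of Elac2 (L/L). The controls had no cre and are labelled Elac2 +/+, and the knockouts carried cre under the promoter of muscle creatine kinase and are labelled Elac2 -/- (L/L, cre). That promoter is active in muscle cells, so the other cell types of a whole heart can keep the gene. The labels state neither age nor sex in words. All library names begin with the code M4WHEART, which the labels do not explain. Elac2 encodes RNase Z, the endonuclease that removes the 3′ trailer from tRNA precursors in the nucleus and in mitochondria. Inserts of 15 to 100 nt from total RNA were sequenced. The values are therefore fragments or short RNAs that fall inside an annotated gene, not intact long transcripts.

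A long non-coding RNA gene can appear in such a library in several ways. Many are host genes: their spliced transcript is short-lived, while a small nucleolar RNA (snoRNA, a guide for chemical modification of rRNA) or a microRNA (miRNA, a guide for silencing of mRNA) is cut from the same precursor and is stable. Other annotated genes of this kind overlap rRNA repeats or protein-coding genes. The remainder give reads only as pieces of a longer transcript. In bulk tissue, fewer cells of a type and less RNA per cell cannot be told apart.

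Total counts ranged from 13510061 to 16248673 per library. The table holds 0 nuclear protein-coding features, so the loss of Elac2 mRNA could not be checked in it. Control replicate 1 stood apart from the other controls for these features: it had the lowest value of the 3 controls, relative to library size, for 27 of the 37 members. The heart muscle label was checked against 8 cardiomyocyte miRNA genes. One of these genes, Mir133b, had no count in any library, and together the 8 made up 134166 to 161740 CPM of the total counts (counts per 1000000, with no other scaling) in controls and 68961 to 82923 in knockouts. The summed miRNA markers of the other cell types spanned 22407 to 27056 against 16721 to 18210 CPM for endothelium (Mir126a) and 31330 to 39020 against 22189 to 27796 for smooth muscle and fibroblasts, where Mir199a-2 and Mir214 had no count. By the TMM-scaled edgeR test used below, 1 of the 7 tested cardiomyocyte genes was called higher and 2 lower. Of the 3 smooth muscle and fibroblast genes tested, 1 was called higher and 0 lower, and Mir126a was not called. Of all tested features 23.2% were called higher and 27% lower. The lower sums thus do not hold for each gene. The part of these markers in the results below was not tested.

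Of the 37 members, 35 were found in GENCODE M21 (mouse build GRCm38) by gene ID, and their exons fell into 3 classes, drawn after the values were seen and so given no test of their own. A pair, Gm26917 and Gm42418, lies at an rRNA gene on chromosome 17. A further 15 have an annotated small RNA gene in an exon on their own strand. The other 18 have none. Crybg3 and Snhg4 were not matched in that annotation.

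The small RNAs inside the host genes are shown first, since a read from one of them also lies in an exon of the host. The following were read from GENCODE M21 transcripts (GRCm38). Snhg5, 9330159M07Rik and 9430037G07Rik lie on chromosome 9, each on the minus strand, and carry near-identical copies of 1 snoRNA. Snord50b (chr9:88521797-88521868) and Snord50a (chr9:88521529-88521600) are in Snhg5, Gm26135 (chr9:88857693-88857764) is in 9330159M07Rik, and Gm23017 (chr9:88598348-88598419) is in 9430037G07Rik. Capitals mark bases that differ from Snord50b.
Snord50b: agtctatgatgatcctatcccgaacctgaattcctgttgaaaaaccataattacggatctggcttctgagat
Snord50a: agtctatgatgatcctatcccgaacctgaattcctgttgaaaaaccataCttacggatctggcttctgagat
Gm26135: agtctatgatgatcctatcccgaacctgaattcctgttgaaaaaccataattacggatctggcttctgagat
Gm23017: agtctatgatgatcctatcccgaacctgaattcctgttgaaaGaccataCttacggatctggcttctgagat
Counted from the 5′ end, Snord50a has 1 difference from Snord50b (A50C) and Gm23017 has 2 (A43G and A50C). Gm26135 has 0 differences over the 72 bases. The authors' treatment of reads that match several genes is not stated, so the 3 host rows share their likely sequence and the split between them is uncertain.

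Snhg1 holds 8 snoRNA genes and Zfas1 holds 3, all on the plus strand. The sequences below are the first 3 of Snhg1 that hold both motifs, in gene order (chr19:8723993-8724064, chr19:8724531-8724602 and chr19:8724868-8724943), and the 3 of Zfas1 (chr2:167063473-167063565, chr2:167064998-167065086 and chr2:167065276-167065365). Capitals mark box C, searched as TGATGA within 20 nt of the 5′ end, and box D, searched as CTGA within 20 nt of the 3′ end, on the RNA strand alone. In snoRNAs of the C/D type these boxes bind the core proteins.
Gm25855: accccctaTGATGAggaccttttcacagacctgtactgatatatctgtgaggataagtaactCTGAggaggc
Gm24452: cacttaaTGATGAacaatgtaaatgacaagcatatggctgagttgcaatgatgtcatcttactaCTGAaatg
Gm24453: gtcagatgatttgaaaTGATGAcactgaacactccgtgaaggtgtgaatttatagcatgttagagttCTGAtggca
Gm25878: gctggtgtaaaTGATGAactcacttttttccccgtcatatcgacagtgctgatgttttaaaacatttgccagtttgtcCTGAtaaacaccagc
Gm23201: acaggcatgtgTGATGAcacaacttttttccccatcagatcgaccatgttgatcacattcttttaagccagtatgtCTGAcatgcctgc
Snord12: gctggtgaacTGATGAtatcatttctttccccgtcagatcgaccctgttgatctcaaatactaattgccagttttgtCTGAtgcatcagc
Both boxes were found in 6 of the 8 snoRNAs of Snhg1, 3 of 3 in Zfas1, 5 of 8 in Rian and 0 of 3 in Snhg17, against 310 of 1507 snoRNA transcripts in the annotation (20.6%). The motif letters are a description of these sequences and were not tied to the counts.

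Mir17hg, the host of a miRNA cluster known for its role in growth and heart development, holds 6 miRNA genes in an exon on chromosome 14, plus strand. The mature sequences below are from RefSeq (GRCm38.p6), with the seed, bases 2 to 8, in capitals.
mmu-miR-17-5p: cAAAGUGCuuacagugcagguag
mmu-miR-20a-5p: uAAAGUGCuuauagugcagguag
mmu-miR-18a-5p: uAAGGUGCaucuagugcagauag
mmu-miR-19a-3p: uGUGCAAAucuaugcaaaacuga
mmu-miR-19b-3p: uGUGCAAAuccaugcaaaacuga
mmu-miR-92a-3p: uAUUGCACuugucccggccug
The seed AAAGUGC is shared by miR-17 and miR-20a, and GUGCAAA by the miR-19 pair. The seeds of miR-18a and miR-92a are each held by 1 of the 6.

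None of the small RNA genes printed above from inside a host had a count of its own. Across the members, 45 small RNA genes lay wholly inside an exon on the same strand, and all 45 were listed at 0 counts in all 6 libraries. Of 7 that overlapped such an exon only in part, 5 had counts. Of 18 in an intron on the same strand, 13 had counts.

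The same held over the whole table for miRNA, snoRNA and scaRNA genes (scaRNAs guide modification of spliceosomal RNA). Of 188 genes lying wholly inside a same-strand exon of another feature, 2 had a count (1.06%), and these were Mirlet7f-1 (654845 counts over the 6 libraries) and Mirlet7a-1 (138531). Of 56 lying inside an exon on the opposite strand only, 37 had a count (66.1%), and of 3374 with no overlap 1246 did (36.9%). Containment on the opposite strand thus did not go with rows at 0. The labels state neither the strand setting of the authors' counting nor its treatment of reads in 2 overlapping features. From these rows alone, the counts of a host cannot be divided between its small RNA and the rest of its exon.

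**Figure D1:**
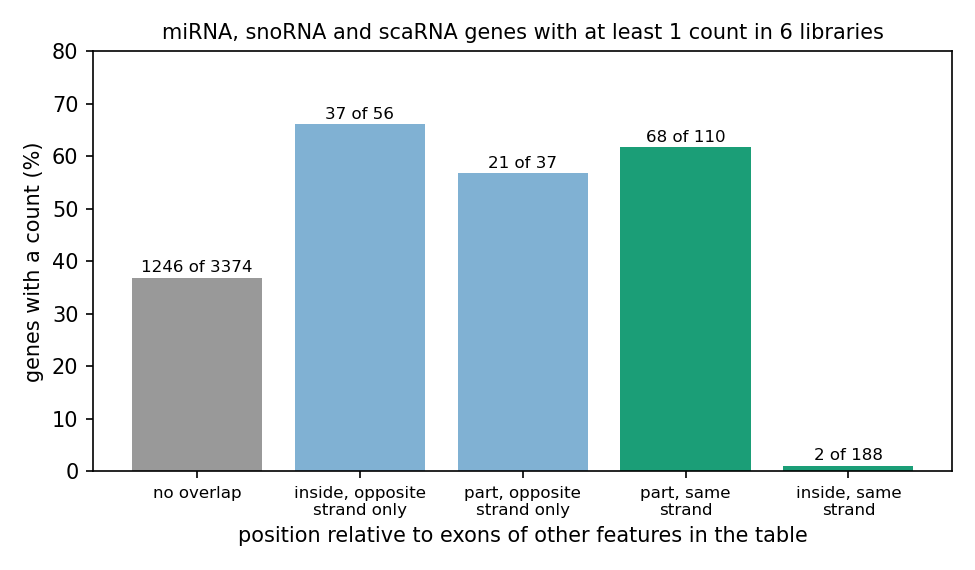
The bars give the percentage of miRNA, snoRNA and scaRNA genes with at least 1 count over 6 libraries, by their position relative to exons of other features in the table, with the counts written above each bar. Genes wholly inside a same-strand exon reached 1.06% and genes with no overlap 36.9%.

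Values below are CPM scaled by TMM factors, which correct library sizes for composition. Fold changes are knockout over control on the log2 scale, from edgeR's quasi-likelihood test over 1144 tested features, with Benjamini-Hochberg adjusted p-values and a threshold of 0.05. The standard error (SE) was derived from that test, as the absolute log2 fold change divided by the square root of its F statistic. Nothing in the labels beyond the mouse itself separates the 3 samples of a group, and each mouse was sequenced as 4 technical replicates per the design text.

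Of the 37 members, 34 could be tested. In the knockout hearts 6 were called higher, beside 23.2% of all tested features. A further 18 were called lower, beside 27% of all tested features, so 24 of the 34 were called in either direction, beside 50.2%. The median log2 fold change of the tested members was -1.05, beside -0.012 over all tested features. The filter on low counts let 14 of the 34 pass through the controls alone, with no knockout library reaching 10 counts, so those members had to be lower in knockouts. They were C130080G10Rik, Atcayos, Gm7292, C330006A16Rik, Tug1, Gm5532, Crybg3, 1810058I24Rik, Cct6a, Gm29253, 6330403L08Rik, 6430584L05Rik, Gm20427 and AC157017.2. Their adjusted p-values and the medians that include them are descriptions and support no direction. Of the other 20 tested members, 6 were called higher, 4 lower and 10 were not called. Among the 4 lower, 2900097C17Rik reached 10 counts in only 1 knockout library, so it too passed the filter through the controls. Among the 10 not called, Snhg4 had 9, 25 and 14 counts in controls and 9, 10 and 9 in knockouts. This split used raw counts, but the filter works relative to library size. On that scale only the controls of Snhg4 reached the limit, so it also passed through them. In 21 of the 37 every control lay above every knockout library, beside 33.7% of tested features. In 7 every knockout lay above every control, beside 29.4%. The 21 comprised the 14 members named above, the untested members and the 4 others called lower. The count of 21 therefore supports no direction.

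Of the 15 hosts with a small RNA gene in a same-strand exon, 4 rose, near the share of all features called higher (23.2%), 3 fell and 8 did not pass the test, with a median of 0.49. Among these hosts 2 of the 3 falls were in members that passed the filter through the controls alone. Of the 15 tested members without such a gene, 13 fell, 1 rose and 1 did not pass, with a median of -4.01. In this class 11 of the 13 falls were fixed in direction by the filter, and of its other 4 tested members 2 fell, 1 rose and 1 did not pass. Of those 2, 2900097C17Rik also passed the filter through the controls, with 14, 8 and 6 counts in knockouts. A contrast between the classes was not tested. Leaving out control replicate 1 gave 5 higher and 19 lower calls over all members.

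**Figure D2:**
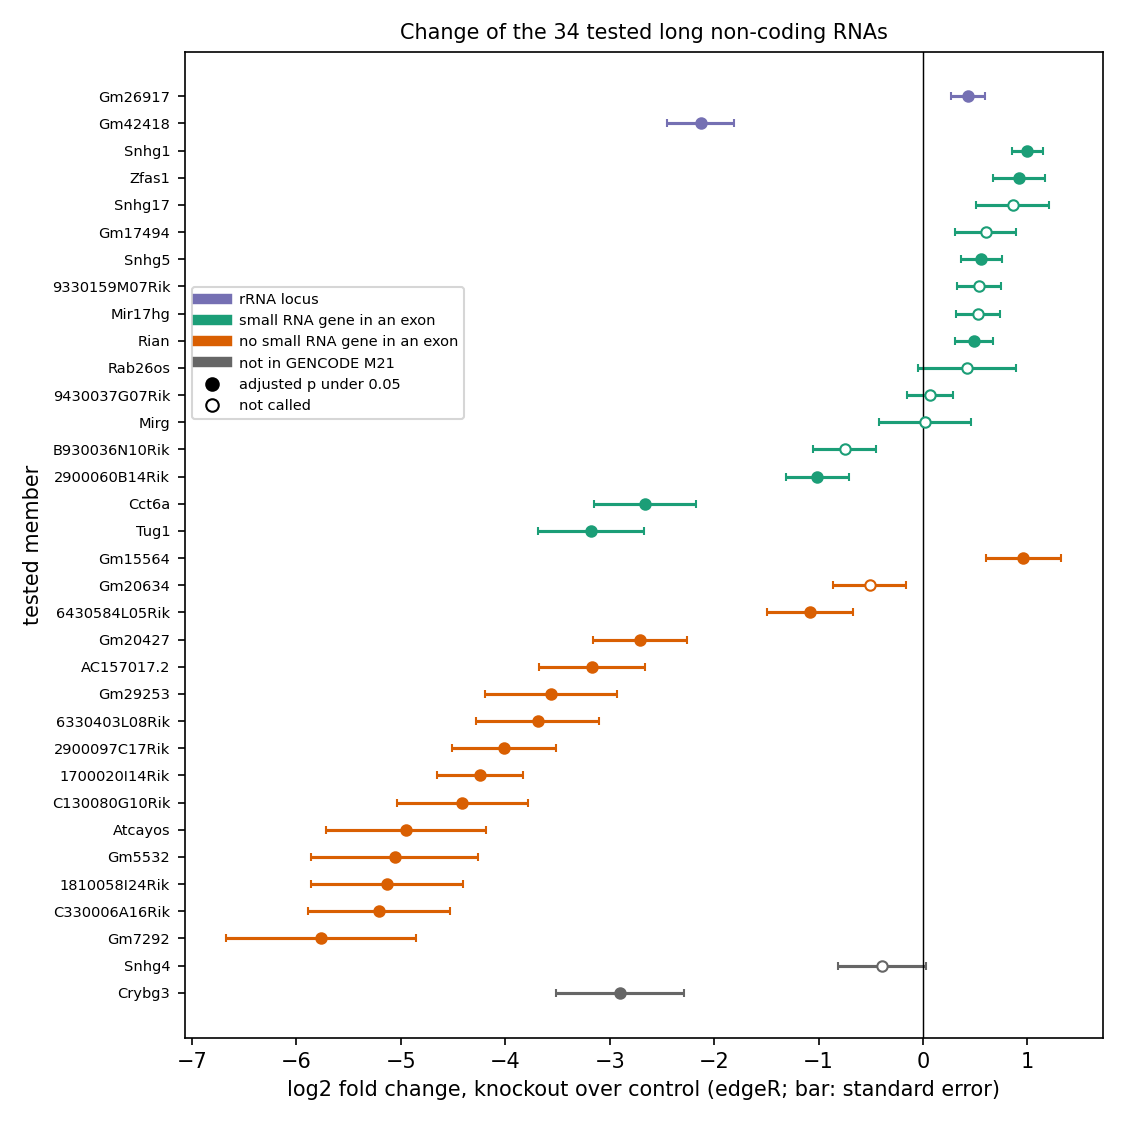
Each point is the log2 fold change of 1 of the 34 tested members, knockout over control, with its standard error, and filled points have an adjusted p under 0.05. Most members without a small RNA gene in an exon lie left of 0, down to -5.76, and most hosts lie between -1.01 and 1.0, apart from Tug1 and Cct6a.

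Gm26917 and Gm42418 were the most abundant members, and they moved in opposite directions. Gm26917 (chr17:39843013-39846341, plus strand, a single exon of 3329 nt) had 18237, 13094 and 15430 CPM in controls and 24128, 21245 and 17520 in knockouts. The groups overlapped, since knockout replicate 3 lay below control replicate 1. The log2 fold change was 0.43 (SE 0.16, n = 3 mice per group, adjusted p = 0.0413, edgeR quasi-likelihood test). This call was lost without control replicate 2 (0.32) or 3 (0.42), or knockout replicate 1 (0.39) or 2 (0.51). It was also lost with DESeq2 (0.40, adjusted p = 0.113), total counts (0.09) and miRNA factors (0.27), and the sign turned with library factors from snoRNA and scaRNA genes (-0.43).

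Gm42418 (chr17:39846958-39848788, plus strand, a single exon of 1831 nt) starts 616 nt after the end of Gm26917. It had 12094, 10047 and 16819 CPM in controls and 3303, 4127 and 1498 in knockouts. All controls lay above all knockouts. It fell by 2.13 on the log2 scale (SE 0.32, n = 3 per group, adjusted p = 0.000204, edgeR quasi-likelihood test).

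RefSeq places Rn18s-rs5, a related sequence of the 18S rRNA gene, at chr17:39846354-39848202. That gene starts 12 nt after the end of Gm26917 and overlaps Gm42418 over 1245 nt. The count ratio of Gm26917 to Gm42418 was 1.51, 1.3 and 0.917 in controls and 7.31, 5.15 and 11.7 in knockouts. This ratio needs no library scaling, and the groups did not overlap. Together the pair held 3.23% ± 0.618 of all counts in controls and 2.13% ± 0.456 in knockouts (SD, n = 3). The repeated copies of rRNA genes share sequence, so the reads of both rows are uncertain in origin.

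**Figure D3:**
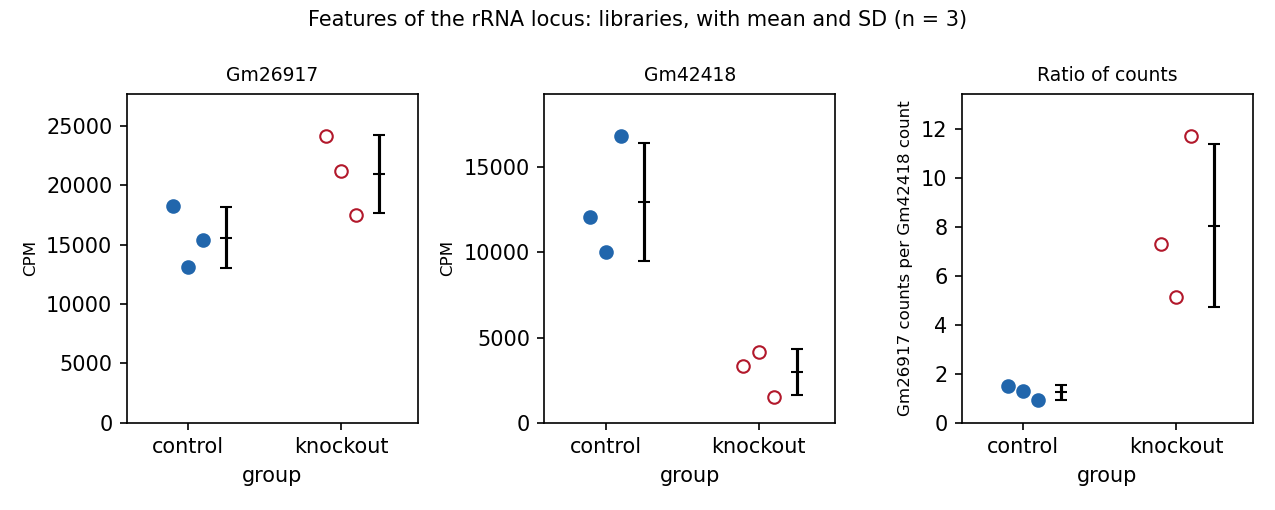
Points are libraries and bars the mean with SD of 3 mice, for Gm26917 and Gm42418 in TMM-scaled CPM and for the ratio of their counts. Gm26917 overlaps between groups, Gm42418 is lower in every knockout, and the ratio is 0.917 to 1.51 in controls and 5.15 to 11.7 in knockouts.

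Among the snoRNA hosts, Snhg1, Zfas1, Snhg5 and Rian rose. Snhg1 (chr19:8723475-8726443, annotated as a single exon of 2969 nt that takes in its snoRNA genes) had 1921, 2241 and 2051 CPM in controls and 4646, 3850 and 3908 in knockouts. The lowest knockout was well above the highest control. The log2 fold change was 1.0 (SE 0.15, n = 3 per group, adjusted p = 0.000162, edgeR quasi-likelihood test).

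Zfas1 (chr2:167062934-167065862, plus strand, a single exon), named for its position antisense to the start of Znfx1, had 23.2, 38.1 and 19.9 CPM in controls and 48.6, 50 and 54.6 in knockouts. Control replicate 2 was the highest control and still lay below every knockout. The log2 fold change was 0.92 (SE 0.25, n = 3, adjusted p = 0.00938, edgeR).

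Snhg5 (chr9:88521050-88522929, minus strand) had 228, 298 and 227 CPM in controls and 443, 311 and 357 in knockouts. The groups did not overlap, but control replicate 2 came close to knockout replicate 2. The log2 fold change was 0.56 (SE 0.2, n = 3, adjusted p = 0.0345, edgeR). The other hosts of the near-identical snoRNA copies did not pass the test. 9330159M07Rik had 91, 131 and 89.3 CPM in controls and 176, 135 and 144 in knockouts (0.54, SE 0.21, n = 3, adjusted p = 0.0511, edgeR), with every knockout above every control. It was called higher with DESeq2 (adjusted p = 0.0387), with other filters, with snRNA and rRNA factors, and without control replicate 2 or knockout replicate 2 or 3. Total counts, miRNA factors and the other left-out libraries gave no call, and the sign turned with snoRNA and scaRNA factors (-0.30). 9430037G07Rik had 7.86, 10.5 and 8.74 against 10.7, 8.14 and 9.55 CPM (0.07, SE 0.22, n = 3, adjusted p = 0.812, edgeR), with overlapping groups.

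Rian (chr12:109603940-109661716, plus strand), a maternally expressed RNA of the imprinted Dlk1-Dio3 domain and a host of snoRNAs and miRNAs, had 62.3, 63.7 and 61.3 CPM in controls. The knockouts had 84.4, 77.4 and 101 CPM. The controls were tightly grouped and below every knockout, with a log2 fold change of 0.49 (SE 0.18, n = 3, adjusted p = 0.0446, edgeR). DQ267102, a snoRNA gene in an intron of Rian with counts of its own, had a log2 fold change of 0.29 (adjusted p = 0.457, edgeR), and Mir370, also intronic, had -0.11 (adjusted p = 0.775, edgeR).

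The calls of Snhg5 and Rian, with adjusted p-values close to the threshold, did not hold with every library left out. Snhg5 was no longer called without control replicate 1 (0.50) or 3 (0.49) or knockout replicate 1 (0.51). Rian was no longer called without control replicate 1 (0.49), 2 (0.51) or 3 (0.48) or knockout replicate 3 (0.44). With library factors from snoRNA and scaRNA genes, which were themselves mostly higher in knockouts, none of the 6 members remained called higher. Snhg1 then stood at 0.15, Zfas1 at 0.08, Snhg5 at -0.28 and Rian at -0.36. With total counts or miRNA factors Snhg1 was still called (0.66 and 0.81). Zfas1 was called with neither (0.58, adjusted p = 0.0689, and 0.72, adjusted p = 0.0575, edgeR). Snhg5 (0.24 and 0.38) and Rian (0.15 and 0.30) were not called with these scalings either. Over the table, 253 snoRNA and scaRNA genes were tested, 142 rose and 8 fell, with a median of 0.74.

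Mirg, the host of a miRNA cluster in the same imprinted domain, was not called. It had 1.43, 0.901 and 1.53 CPM in controls and 2.25, 0.949 and 0.677 in knockouts, a log2 fold change of 0.02 (SE 0.44, n = 3, adjusted p = 0.977, edgeR) with overlapping groups. Of the miRNA genes at its exon edges, Mir382 overlapped an exon by 2 nt and rose by 0.80 (SE 0.21, n = 3, adjusted p = 0.00676, edgeR). The others were not called: Mir668 had 0.58 (adjusted p = 0.151), Mir369 0.58 (adjusted p = 0.0781) and Mir412 0.53 (adjusted p = 0.352, edgeR). Mir3072, also in part in an exon, had no count. Mir541 and Mir409, in introns of Mirg, had log2 fold changes of 0.51 (adjusted p = 0.0991) and 0.53 (adjusted p = 0.0549, edgeR).

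Mir17hg had 36.3, 25.7 and 37.4 CPM in controls and 45.3, 48.2 and 49.8 in knockouts. Every knockout lay above every control, but the difference of 0.53 did not pass (SE 0.21, n = 3, adjusted p = 0.0513, edgeR). Snhg17, whose 3 snoRNAs hold no box C and D pair by the search above, had 0.65 to 0.901 CPM in controls and 1.13 to 1.96 in knockouts. Its log2 fold change was 0.86 (SE 0.35, n = 3, adjusted p = 0.0587, edgeR). Snhg4, a snoRNA host by name, had 0.585 to 1.41 against 0.653 to 0.791 CPM and was not called (-0.39, adjusted p = 0.459, edgeR).

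Mir99ahg shows the opposite case, a host with its miRNA genes in introns. The host had 66 counts in all 6 libraries and was not tested, with 8, 31 and 20 counts in controls and 4, 2 and 1 in knockouts. In the authors' deposited table its log2 fold change was -2.63 (adjusted p = 0.0161). Mir99a, in an intron of the same strand, had 2265996 counts over the libraries and a log2 fold change of 0.40 (SE 0.17, n = 3, adjusted p = 0.0675, edgeR). Mirlet7c-1 rose by 0.60 (SE 0.15, n = 3, adjusted p = 0.00577, edgeR), and Mir125b-2 had 0.13 (SE 0.15, n = 3, adjusted p = 0.488, edgeR). Under TMM scaling none of the 3 intronic miRNA genes was called lower. By raw counts Mir125b-2 went the other way, with 15431, 15625 and 15605 in controls and 13723, 12611 and 13279 in knockouts.

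The remaining hosts of the 15, most of them outside the fixed naming rule and named after their values were seen, were less abundant. B930036N10Rik had 7.6 to 12.6 CPM in controls and 4.36 to 8.86 in knockouts, overlapping groups, and was not called (-0.75, adjusted p = 0.0591, edgeR). It was called lower with DESeq2 (adjusted p = 0.0336) and under other settings given in the closing section. Gm17494, which holds Mir760, had a log2 fold change of 0.60 (adjusted p = 0.109) and Rab26os, which holds Snord60, 0.42 (adjusted p = 0.483, edgeR).

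The hosts called lower were 2900060B14Rik, Tug1 and Cct6a. 2900060B14Rik is a single exon of 616 nt around the snRNA gene Gm22710, and fell by 1.01 (SE 0.3, n = 3, adjusted p = 0.0154, edgeR), a call lost without control replicate 3 (-0.79) or knockout replicate 1 or 3 (-0.90 in each case). Cct6a, which encodes a subunit of the cytosolic chaperonin and is protein-coding in RefSeq, fell by 2.66 (SE 0.49, n = 3, adjusted p = 0.000751, edgeR). Its 1 exonic small RNA gene, Snora15, overlaps the exon in part.

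Tug1, a long RNA studied in muscle and other tissues, was the 1 member matched by symbol to a list of 17 cardiac and muscle long RNAs. It had 1.36, 3.83 and 3.17 CPM in controls. The knockouts had 0.145, 0.395 and 0.376 CPM, all below the lowest control. It fell by 3.18 on the log2 scale (SE 0.51, n = 3, adjusted p = 0.000296, edgeR), and is one of the members that the filter passed through the controls alone. The 4 small RNA genes in its exons are typed misc_RNA, and none is a snoRNA or miRNA gene.

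**Figure D4:**
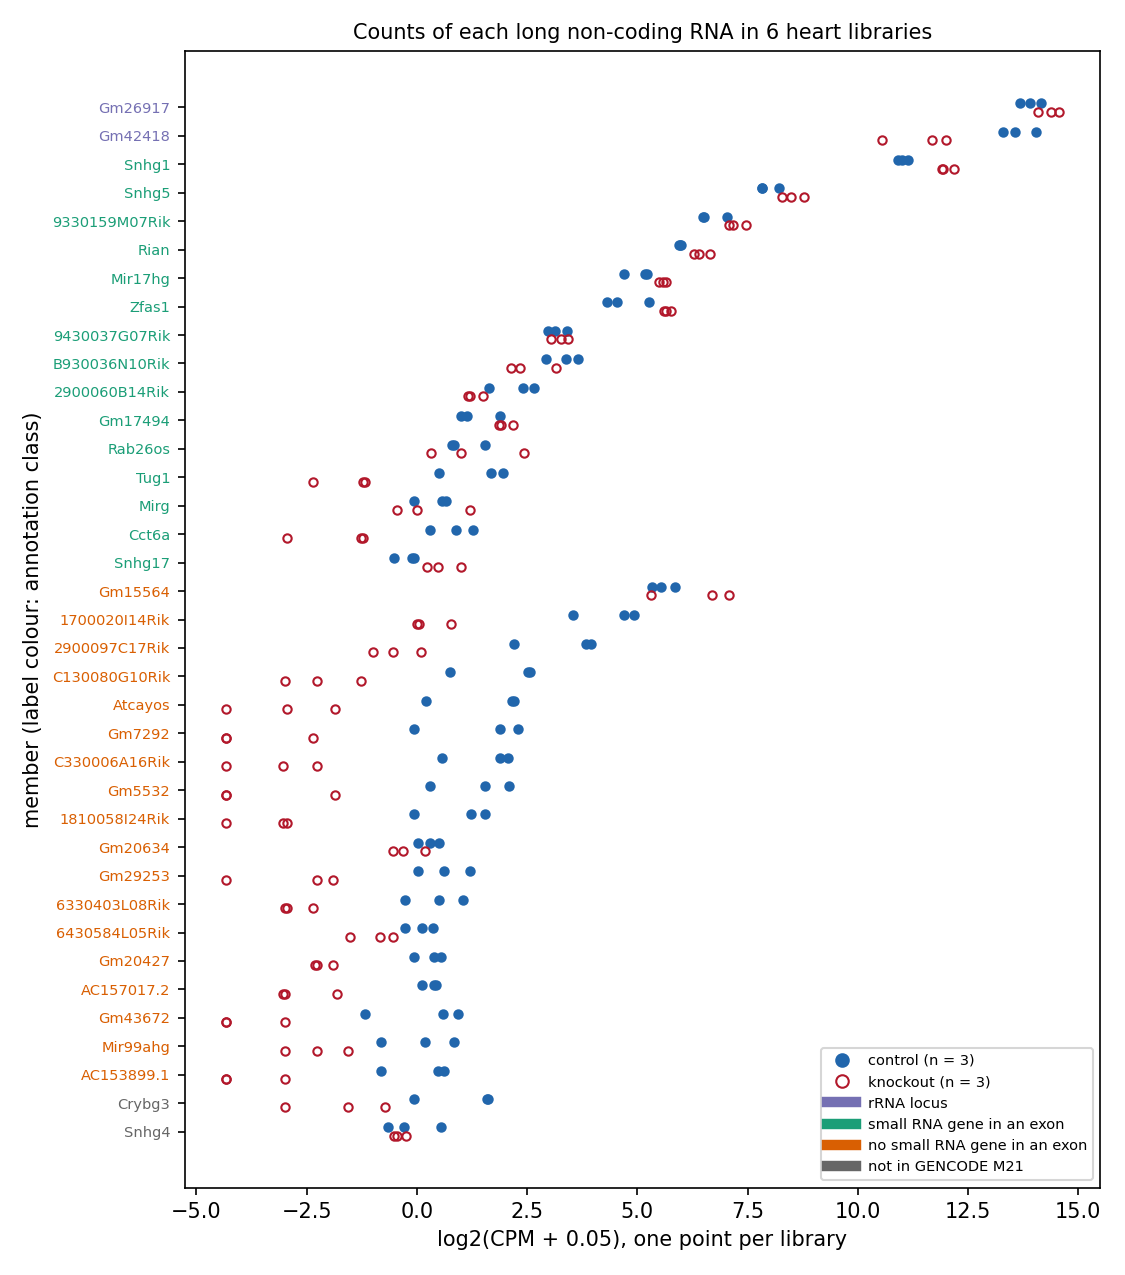
Each row is 1 member and each point 1 library, on a log2 axis of TMM-scaled CPM plus 0.05, filled for controls and open for knockouts, with the label colour giving the annotation class. Most members of the class without a small RNA gene in an exon show knockouts left of all controls, and Gm15564 and Gm20634 show overlapping groups.

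The members without a small RNA gene in an exon were mostly low in count. Of the 15 tested 13 fell, beside 27% of all tested features, but the filter left 11 of these no other direction. 1700020I14Rik (chr2:119594297-119607502, plus strand), the most abundant of those that fell, had 11.5, 30.4 and 25.7 CPM in controls and 0.944, 1.66 and 0.978 in knockouts. It fell by 4.24 on the log2 scale (SE 0.41, n = 3, adjusted p = 8.73e-06, edgeR). 2900097C17Rik (chr2:156388065-156392979, minus strand) had 4.55, 15.5 and 14.2 CPM against 1.02, 0.633 and 0.451. It fell by 4.01 (SE 0.5, n = 3, adjusted p = 5.46e-05, edgeR). With 14, 8 and 6 counts in knockouts it passed the filter through the controls, so this p-value is a description. In 1700020I14Rik and 2900097C17Rik, control replicate 1 was the lowest control and still lay above every knockout.

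C130080G10Rik had 1.62, 5.85 and 5.73 CPM in controls and 0.363, 0.158 and 0.0752 in knockouts, and fell by 4.41 (SE 0.63, n = 3, adjusted p = 0.000136, edgeR). Atcayos, antisense to Atcay and to Nmrk2, a muscle enzyme of NAD synthesis, had 1.1, 4.39 and 4.53 CPM in controls. In knockouts it had 0, 0.0791 and 0.226 CPM, and it fell by 4.95 (SE 0.77, n = 3, adjusted p = 0.000254, edgeR). The log2 fold change was -4.27 without knockout replicate 1 and -6.12 without knockout replicate 3. With 178 counts in controls and 4 in knockouts, the count ratio scaled to total counts was 43.5 (95% exact interval 16.7 to 162). C130080G10Rik moved to -5.06 without knockout replicate 1. Both are among the members that passed the filter through the controls alone.

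The other 4 members with the largest falls had only 2 or 3 counts over all knockout libraries, so a count ratio scaled to total counts is given with its 95% exact interval, which covers counting error only. Gm7292 had 167 counts in controls and 2 in knockouts, a ratio of 81.7 (22.3 to 680). C330006A16Rik, named as a pseudogene of Tmem250 in GENCODE M21, had 163 and 3, a ratio of 53.2 (17.9 to 260). Gm5532 had 146 and 3, a ratio of 47.6 (16 to 234). 1810058I24Rik had 107 and 2, a ratio of 52.3 (14.1 to 438). RefSeq lists it as protein-coding, with the synonym Stmp1, a short mitochondrial membrane protein. All 4 passed the filter through the controls alone, so a fall was the only call they could give.

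Gm43672 and AC153899.1 had 1 knockout count each and were not tested. Gm43672 had 66 counts in controls, a ratio of 64.6 (11.2 to 2589), and AC153899.1 had 59, a ratio of 57.7 (9.97 to 2318). The authors' deposited table gave log2 fold changes of -5.47 and -5.32 for them.

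The members at lower levels, outside the naming rule and named after their values were seen, included genes that share exons with protein-coding genes. Exons of Gm29253 overlap those of Abcb6 and Atg9a, and exons of Gm20427 those of H2-Ke6 and Slc39a7, on the same strand. Gm29253 fell by 3.56 (SE 0.63, n = 3, adjusted p = 0.000551, edgeR, and -2.93 without knockout replicate 3) and Gm20427 fell by 2.71 (SE 0.45, n = 3, adjusted p = 0.000377, edgeR). Their reads cannot be told apart from fragments of those mRNAs, which have no rows in the table. Gm20634, which takes in the whole of the histone gene Hist2h3c1 and most of Hist2h2aa1, did not pass (-0.51, SE 0.35, n = 3, adjusted p = 0.254, edgeR), with 0.975 to 1.37 CPM in controls and 0.633 to 1.09 in knockouts.

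6330403L08Rik, antisense to an exon of Pdgfa, fell by 3.69 (adjusted p = 0.000292, edgeR), and AC157017.2, named D830005E20Rik in GENCODE M21, fell by 3.17 (adjusted p = 0.000296, edgeR, and -3.78 without knockout replicate 2). Crybg3, protein-coding in RefSeq, fell by 2.90 (adjusted p = 0.00173, edgeR). 6430584L05Rik fell by 1.08 (adjusted p = 0.0452, edgeR). That call was lost without control replicate 2 (-0.92) or 3 (-1.07) or without knockout replicate 1 (-1.04), 2 (-1.20) or 3 (-0.77).

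Gm15564 (chr16:35966752-35983230, minus strand) was the exception in this class. It had 57.4, 40.4 and 46.4 CPM in controls and 104, 136 and 39.6 in knockouts. Knockout replicate 3 lay below every control, so the groups overlapped. It was called higher (0.96, SE 0.36, n = 3, adjusted p = 0.0456, edgeR). The call was lost without control replicate 2 (0.85) or 3 (0.94) or knockout replicate 1 (0.93) or 2 (0.67). It was also lost with total counts (0.61), miRNA factors (0.81) and snoRNA and scaRNA factors (0.12). The knockout with the low value, replicate 3, also had the lowest Gm42418.

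Without Gm15564, the members with no small RNA gene in an exon summed to 34.3, 94.2 and 85.9 CPM of the total counts in controls and 4.89, 3.99 and 3.14 in knockouts. Control replicate 1 was the low control, and was the lowest control for 17 of the 18 members of the class. Its value was 0.214 to 1.32 times the mean of controls 2 and 3, with a median of 0.367. The hosts summed to 0.291% ± 0.019 of counts in controls and 0.435% ± 0.0764 in knockouts (SD, n = 3). For these, control replicate 1 was the lowest control in 8 of 15, with a median ratio of 0.819.

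Other fragments of longer RNAs in the same libraries were ordered alike. Features of the same types under the count minimum summed to 90.7, 130 and 125 CPM of the total counts in controls and 39.9, 33.2 and 36.9 in knockouts. Of these features 662, 863 and 813 had a count in controls and 363, 328 and 391 in knockouts. Processed pseudogenes held 0.0402%, 0.1% and 0.0979% of counts in controls and 0.00689%, 0.00603% and 0.00509% in knockouts. Of 93 tested processed pseudogenes 90 fell and 0 rose at an adjusted p under 0.05 (edgeR), beside 27% and 23.2% of all tested features. How many of the 93 passed the filter through the controls alone was not counted. For any that did, a fall was fixed in advance, so these calls support no direction. Mitochondrial mRNAs held 0.812%, 2.11% and 1.67% of counts in controls and 0.0997%, 0.089% and 0.0659% in knockouts. In each of these measures control replicate 1 was the lowest control and lay above every knockout. The part of these measures in the falls was not tested.

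**Figure D5:**
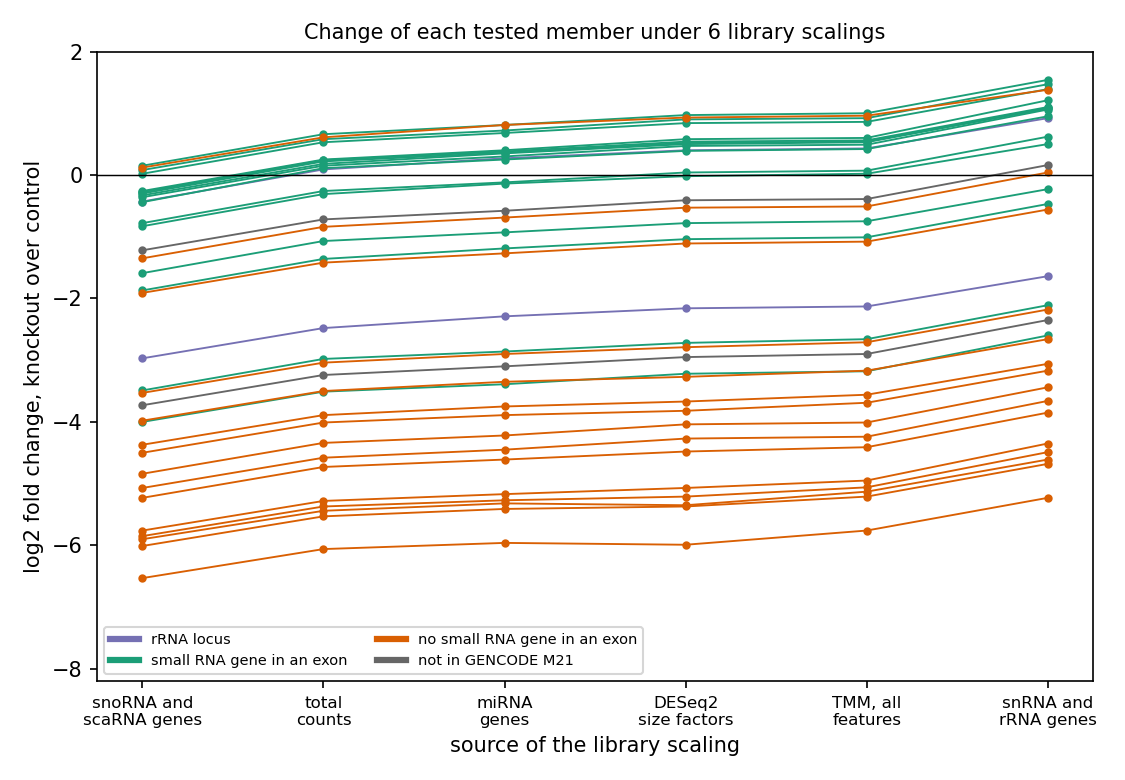
Each line joins the log2 fold changes of 1 tested member, knockout over control, under 6 sources of library scaling, with colours for the annotation classes. The lines shift together, and the hosts near 0.5 cross 0 with factors from snoRNA and scaRNA genes while every member called lower stays below 0.

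Members matched by symbol to the fixed gene lists were few. Of 9 imprinted long RNAs 2 were members, of which 1 rose (Rian) and 0 fell. Of 32 rows for small RNA hosts 9 were members, and of the 8 tested 4 rose, beside 23.2% of all tested features, and 0 fell, beside 27%, with a median of 0.54. None of these 4 rises was called under every scaling. Of 14 cardiac and muscle rows matched by symbol 1 was a member (Tug1), and it fell. Hand2os1, Oip5os1 and Norad of this list had no row under these symbols. They can stand under other gene names, also among the members, so this count can be too low. Mhrt, a long RNA antisense to the heart myosin heavy chain gene Myh7, was below the minimum, with 7, 16 and 9 counts in controls and 1, 1 and 0 in knockouts. Of 4 X inactivation genes 0 were members. Xist had 8, 11 and 9 counts in controls and 0 in each knockout, and the labels do not state the sex of the mice.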

How the data were processed

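Small RNA libraries (inserts of 15 to 100 nt) from 6 mouse hearts were analysed, 3 control and 3 knockout, grouped by the labels. The authors deposited raw read counts per gene for each library. The submitters' processing notes name cutadapt 1.14, Bowtie2 2.2.9, featureCounts 1.5.1, DESeq2 1.16.1 and mm10. Neither these notes nor the file headers state the annotation, the strand setting or the treatment of multiple matches. Log2 fold changes and adjusted p-values of the authors' deposited table are printed only where that table is named.

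Counts were tested across the whole table with edgeR 4.0.16 (quasi-likelihood test, TMM, filterByExpr with a minimum count of 10 and a minimum total of 15, n = 3 per group). The alternatives used DESeq2 1.42.0, other scalings, other filters, a replicate block and leaving out each library. The edgeR step was tested on simulated data. Genes were placed with GENCODE M21 (GRCm38) and RefSeq (GRCm38.p6). No pair of libraries agreed within counting noise (lowest chi-square per degree of freedom 98.2), and each was counted as 1 sample, as labelled. Depth was 13510061 to 16248673 counts.

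The members and lists were chosen with earlier results of these data known. Named members are up to 8 per direction with the largest called change and groups that do not overlap, the 12 most abundant, those in 4 lists (imprinted, small RNA hosts, cardiac and muscle, X inactivation), those at the edge of the rule and the most abundant hosts. Of the marker lists not given in the report, in CPM of the total counts, red cell miRNAs spanned 574 to 1364 in controls and 833 to 1266 in knockouts, leukocyte 42.1 to 61.7 and 25.5 to 29.4, liver 0.627 to 2.66 and 1.24 to 1.61, and brain 22.3 to 28.4 and 14.5 to 21.8. A sequence comparison for 1 small RNA gene is not reported here.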

Additional observations from a re-analysis of the deposited data

How the results depend on the processing

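Of the 18 members called lower, 16 were called lower with each library left out and under each other scaling, the exceptions being 2900060B14Rik and 6430584L05Rik. For 14 of the 18 the filter on low counts fixed the direction, so their calls are no sign of stability. The same limit holds for 2900097C17Rik, which also passed the filter through the controls. Of the 6 called higher, Snhg1 and Zfas1 were called with each library left out, and 0 of the 6 under every scaling. The scalings moved the median of all features by -0.34 (total counts), -0.18 (miRNA factors), -0.85 (snoRNA and scaRNA factors) and 0.54 (snRNA and rRNA factors). The count called higher was 1 with total counts, 1 with miRNA factors, 0 with snoRNA and scaRNA factors, 10 with snRNA and rRNA factors, 10 with no filter, and 2 among members without a small RNA gene in a same-strand exon. With snoRNA and scaRNA factors 22 were called lower, and with snRNA and rRNA factors 16. With at least 30 counts in 3 libraries only 16 members were tested, and 5 were called lower. Leaving out 1 library gave 3 to 7 higher (3 without control replicate 3 or knockout replicate 1), 16 to 19 lower and a median of -1.12 to -0.83. The median was -1.39 with total counts, -1.23 with miRNA factors, -1.89 with snoRNA and scaRNA factors, -0.51 with snRNA and rRNA factors, -1.79 with no filter (37 members) and 0.47 with the stricter filter, which removes the low members. Signs turned with snoRNA and scaRNA factors for Gm17494 (-0.26), Snhg5 (-0.28), 9430037G07Rik (-0.78), 9330159M07Rik (-0.30), Rian (-0.36), Mirg (-0.83), Mir17hg (-0.33), Rab26os (-0.44) and Gm26917 (-0.43), and with snRNA and rRNA factors for Gm20634 (0.04) and Snhg4 (0.16). 9430037G07Rik also turned with total counts (-0.26), miRNA factors (-0.12) and without control replicate 1 (-0.02). Mirg turned with DESeq2 (-0.02), total counts (-0.31), miRNA factors (-0.14), the replicate block (-0.07), without control replicate 2 (-0.19) and without knockout replicate 1 (-0.58), Rab26os without knockout replicate 1 (-0.33) and Snhg4 without control replicate 2 (0.06). Over the left-out libraries these ranged from -0.02 to 0.28 (9430037G07Rik), -0.58 to 0.39 (Mirg), -0.33 to 0.88 (Rab26os) and -0.61 to 0.06 (Snhg4).

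The replicate numbers share only a name: deviations of same-numbered libraries correlated at -0.134, -0.0163 and -0.192. With the number as a block 4 members were called higher, 18 lower and the median was -1.02. Snhg5, Rian and 6430584L05Rik were then not called, and B930036N10Rik was gained as lower (adjusted p = 0.0348, edgeR), so 17 of the 18 lower calls were kept. B930036N10Rik was also called lower with DESeq2 (0.0336), total counts (0.0152), snoRNA and scaRNA factors (0.000572), the stricter filter (0.0445), and without control replicate 1 (0.0114) or knockout replicate 1 (0.0125), all adjusted p-values. Depth limits the low members: 14 of the 34 tested members had under 10 counts in every knockout library, and 3 members could not be tested.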
